A study of Mus musculus with 22 samples.

Results

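Lymphoid-primed multipotent progenitors (LMPP) were compared with common myeloid progenitors (CMP) from mouse bone marrow by their transcripts on Illumina bead arrays. The comparison takes the 4 arrays labelled LMPP against the 4 labelled CMP, which are 8 of the 22 arrays of the series, and covers the 11118 genes whose brightest probe was detected on at least 4 arrays. All arrays carried RNA from C57BL/6 mice that were 8 weeks old and GATA1-GFP transgenic, so the LMPP and CMP share the reporter transgene. The sources used here do not give the reporter's promoter, the antibody gates or the number of mice behind an array. The other arrays hold LSK cells sorted by the reporter, labelled GATA1-LSK (4) and GATA1+LSK (4), and long-term stem cells, labelled LT-HSC (6).

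In the mouse, the LMPP is a multipotent cell of the Sca-1-positive, Kit-positive compartment that has strong Flt3 on its surface, has begun to transcribe lymphoid genes, and makes lymphocytes, granulocytes and macrophages but few platelets or red cells. The CMP lies in the Sca-1-negative, Kit-positive compartment and gives rise to granulocyte-macrophage progenitors and to megakaryocyte-erythroid progenitors. GATA1 and GATA2 bind the sequence that gives them their name and switch on genes of red cells, platelets and mast cells, whereas E proteins and Ikaros family factors act in the lymphoid programme.

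Genes were called at a Benjamini-Hochberg adjusted p under 0.05 in limma, fitted over all 22 arrays, and every difference below is LMPP minus CMP on the log2 scale. Of the 11118 genes, 400 were higher in LMPP (3.60%) and 257 were lower (2.31%), together 657 or 5.91%. The median size of a called difference was 1.39, and 523 of the called genes (331 higher, 192 lower) differed at least 2-fold. With arrays scaled to 1 median instead of quantile normalised, 142 genes were called higher and 160 lower, and the median of all genes moved to -0.11 from 0.013. The LMPP and CMP arrays did not overlap for 615 of the called genes and for 1411 genes in all, which is 12.7% of those tested. Arrays correlated at 0.967 to 0.990 within LMPP, at 0.947 to 0.987 within CMP and at 0.919 to 0.962 between them, across genes.

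Slide and population were partly aligned. LMPP 1 to 3 shared slide 1, CMP 1 and 2 lay on slide 2, and only slide 4 held both, with LMPP 4 beside CMP 3 and CMP 4. On slide 4 alone, 656 of the 657 called genes differed in the same direction as over all arrays, against 72.6% of all genes tested, although LMPP 4, CMP 3 and CMP 4 are themselves part of the calls. When slide entered the fit as a fixed block, 282 genes rose and 179 fell, of which 367 were among the 657. Whether replicate arrays stem from separate mice is not in the labels, and p-values therefore reflect only how much the arrays vary, in part perhaps technically. In the main fit, the SE and p of a gene rest on its spread within all 5 populations, not only LMPP and CMP. For Elane the SD was 0.20 in LMPP, 0.29 in CMP and 2.77 in LT-HSC, and for Mpo 0.070, 0.12 and 2.78. In sorted bulk cells, fewer cells of a type and less RNA per cell cannot be told apart.

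**Figure D1:**
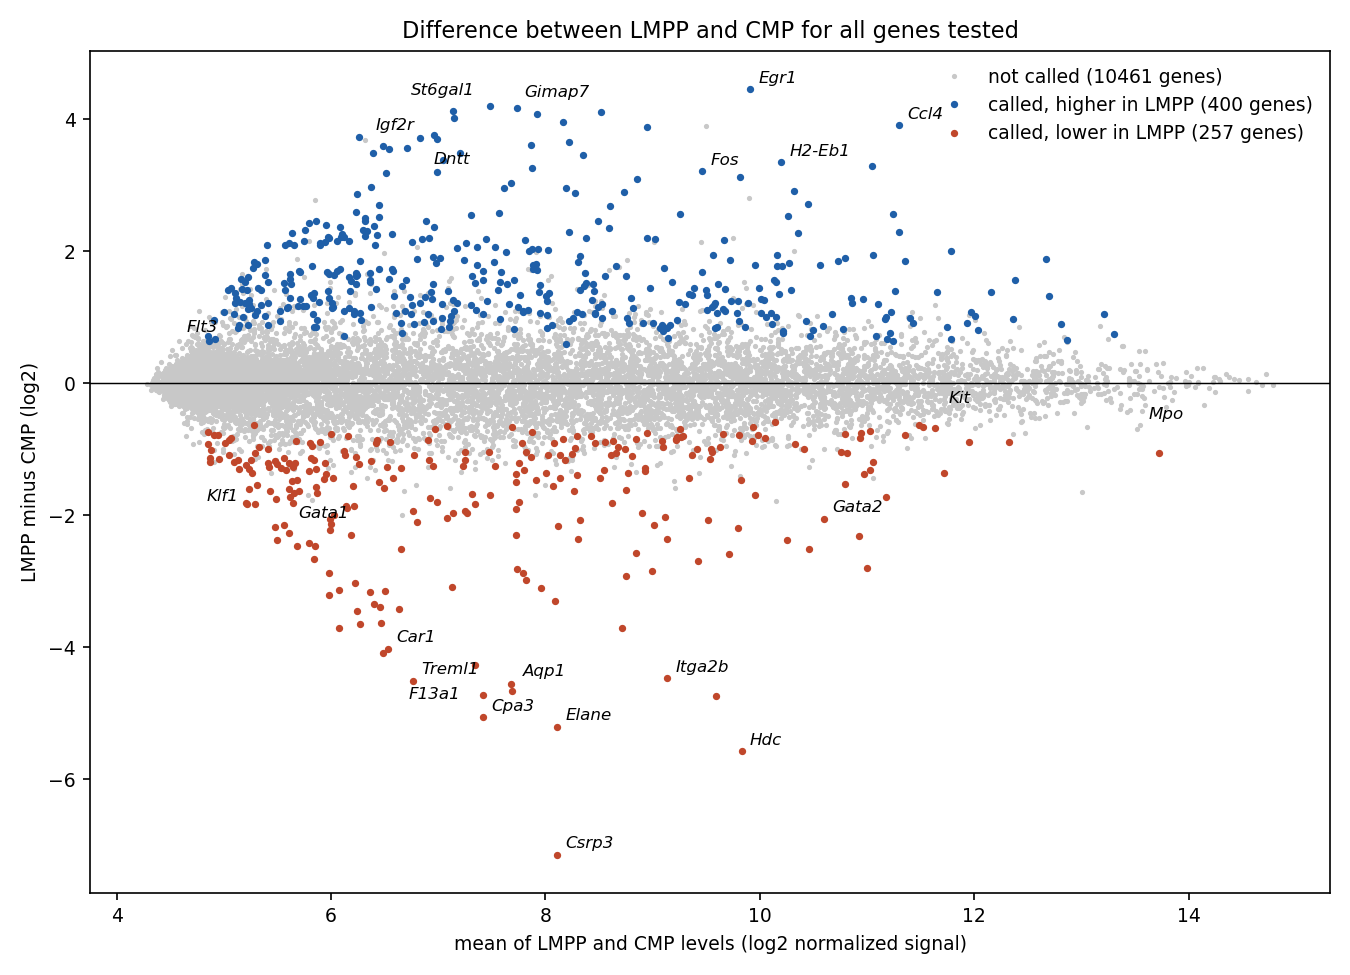
Each point is 1 of the 11118 genes, with the mean of the LMPP and CMP levels (log2 normalized signal) on the horizontal axis and LMPP minus CMP (log2) on the vertical axis. Blue points are the 400 genes called higher in LMPP, red points the 257 called lower and grey points those not called. The lowest point is Csrp3, which was detected on no LMPP array, at a fitted -7.14, and the highest is Egr1 at 4.46.

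The labels were first set against the markers that define the cells. Ly6a, which encodes Sca-1, stood at 11.48, 11.37, 11.87 and 11.28 in LMPP 1 to 4, against 6.23, 6.67, 7.27 and 7.13 in CMP 1 to 4. The difference was 4.67 ± 0.30 (SE; limma, adjusted p = 1.38e-09 over all 19764 detected probes, of which 885, or 4.48%, were called). The 4 LMPP arrays all lay more than 4 log2 units above the highest CMP array. Kit, the stem cell factor receptor shared by both, read 12.05, 12.40, 10.94 and 10.58 in LMPP 1 to 4 and 12.43, 12.53, 11.18 and 11.39 in CMP 1 to 4, and was not called (difference -0.39, adjusted p = 0.83). Cd34, a surface sialomucin of progenitors, read 8.61, 7.88, 8.002 and 8.02 in LMPP 1 to 4 and 7.64, 7.13, 7.52 and 7.57 in CMP 1 to 4 (difference 0.66, adjusted p = 0.234). Kit was bright and overlapped between the groups, while the LMPP arrays lay above the CMP arrays in Cd34 by less than the fit could separate over all genes. With array weights Cd34 passed (adjusted p = 0.00163).

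Flt3, the cytokine receptor that defines the LMPP, barely separated the groups. Its brightest probe gave 5.29, 4.91, 4.71 and 5.11 in LMPP 1 to 4 and 4.82, 4.59, 4.53 and 4.51 in CMP 1 to 4, with 3 of the LMPP arrays and 1 of the CMP arrays above background, and a difference of 0.39 (adjusted p = 0.216, but 0.0255 with its probes averaged and 0.0109 with array weights). These readings lay close to background, so of the 2 surface genes that define LMPP, Ly6a separated the labelled arrays and Flt3 did not. On the CMP side, Fcgr3, a receptor for antibody that is low on CMP by sorting, was detected on all CMP arrays and on no LMPP array and was at least 2.06-fold lower in LMPP (adjusted p = 0.0198). That call was lost without LMPP 2 (adjusted p = 0.0592) or CMP 4 (0.0823). Cebpa, a factor of the myeloid lineage, was detected on no array. Mpo, the azurophil granule peroxidase, was bright in both, at 13.24, 13.12, 13.29 and 13.25 in LMPP 1 to 4 and 13.84, 13.96, 13.95 and 13.71 in CMP 1 to 4 (adjusted p = 0.885). The groups did not overlap, and when only these 8 arrays were fitted its difference of -0.64 passed (adjusted p = 0.0338).

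Csf1r, the macrophage colony-stimulating factor receptor, read 6.35, 6.44, 6.49 and 6.65 in LMPP 1 to 4 and 6.93, 7.09, 7.55 and 7.38 in CMP 1 to 4 and was not called (difference -0.75, adjusted p = 0.0873). With the replicate number as a block its adjusted p was 0.0278, with slide as a block 0.0433, with median scaling 0.0202 and with only these 8 arrays 0.0357. Spi1, which encodes the myeloid and lymphoid factor PU.1, read 5.98, 6.49, 6.78 and 5.48 in LMPP 1 to 4 and 5.74, 6.54, 6.86 and 6.85 in CMP 1 to 4, and the groups overlapped (difference -0.32, adjusted p = 0.731). Il2rg, the shared interleukin receptor chain, was not called (difference 1.71, adjusted p = 0.0568 over all detected probes), and the difference passed with the replicate number as a block (adjusted p = 0.00801) and with slide as a block (0.0497).

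Lymphoid genes stood higher in LMPP. Of 16 measured genes of lymphoid priming, 9 rose and none fell, and the median difference was 1.01 against 0.013 over all genes. The 9 were Dntt, Gimap6, Ltb, Il7r, Notch1, Satb1, Bcl11a, Il10ra and Tcf4, and all 16 differences were positive. The mean level of the list was 9.26, 9.20, 9.12 and 9.34 on LMPP 1 to 4 and 7.91, 7.85, 8.14 and 8.04 on CMP 1 to 4. No array of another population reached the lowest LMPP array in this mean, with LT-HSC next at 8.25 to 8.86. Single genes differed from it. The LT-HSC mean lay above the LMPP mean for Il7r (7.52 against 7.20), Ltb (8.26 against 7.45) and Gimap6 (12.21 against 11.81). It lay below for Dntt, Notch1, Satb1 and Tcf4. The count of 9 was 5 with slide as a block, 5 with median scaling and 5 without CMP 1.

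Dntt, the terminal transferase that adds bases to rearranging antigen receptor genes, read 9.28, 9.12, 8.40 and 8.58 in LMPP 1 to 4, against 5.38, 4.82, 5.57 and 4.78 in CMP 1 to 4. The groups were far apart, with a difference of 3.70 ± 0.32 (SE, adjusted p = 4.89e-08), and the CMP arrays were dim. St6gal1, a sialyltransferase that builds the ligand of the B cell lectin CD22, read 10.20, 9.78, 9.23 and 9.15 in LMPP 1 to 4, against 5.81, 5.85, 5.31 and 4.54 in CMP 1 to 4. Its difference of 4.21 ± 0.49 (SE, adjusted p = 5.27e-06) left no overlap between the groups.

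Il7r, the receptor for the lymphoid cytokine interleukin-7, read 7.19, 7.53, 6.74 and 7.35 in LMPP 1 to 4, against 5.38, 4.94, 6.28 and 5.50 in CMP 1 to 4. No CMP array reached the lowest LMPP array, and the difference was 1.68 (adjusted p = 0.0324). That call was lost with slide as a block (adjusted p = 0.232), without a detection filter (0.0665), and without any 1 of the arrays except LMPP 3 and CMP 3 (up to 0.115).

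Satb1, a chromatin organiser of lymphoid cells, read 11.67, 11.85, 11.80 and 11.73 in LMPP 1 to 4, against 10.25, 10.66, 10.67 and 11.16 in CMP 1 to 4. It was bright in both populations, and the difference of 1.08 (adjusted p = 0.0108) was not called with slide as a block (0.121), with median scaling (0.482) or without CMP 1 (0.0531). Notch1, the receptor that commits cells to the T lineage, read 8.06, 7.76, 8.07 and 9.15 in LMPP 1 to 4, against 6.66, 6.98, 6.73 and 7.88 in CMP 1 to 4. CMP 4 lay above LMPP 2, so the groups overlapped by that 1 pair, and the difference of 1.20 (adjusted p = 0.0108) was not called with median scaling (0.455), with only these 8 arrays (0.0650) or without CMP 1 (0.0505). Notch1 was the 1 called gene of 14 in Notch and Wnt signalling, where 2 rose with the replicate number as a block. Among all 11118 genes, 400 rose (3.60%), and 585 with that block.

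Lck, the kinase of T cell receptor signalling, read 8.65, 8.55, 8.45 and 8.01 in LMPP 1 to 4, against 5.70, 6.17, 5.45 and 5.66 in CMP 1 to 4. The groups did not overlap, and the difference was 2.67 ± 0.34 (SE, adjusted p = 2.16e-05 over all detected probes). Ltb, which encodes lymphotoxin beta, a membrane cytokine of lymphocytes, rose by 2.32 (adjusted p = 4.38e-07). Gimap7, a GTPase of the immunity-associated family of lymphocytes, read 9.61, 9.77, 10.48 and 9.97 in LMPP 1 to 4, against 5.89, 6.07, 6.47 and 5.08 in CMP 1 to 4 (difference 4.08 ± 0.48, SE, adjusted p = 4.94e-06). Its neighbour in that family Gimap6 rose by 2.72 (adjusted p = 4.89e-08).

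Genes of later lymphoid stages gave these calls, where 5.91% of all genes tested were called in either direction. In the early B cell list, 1 of 11 measured genes rose, Cd72 at 2.20 (adjusted p = 1.60e-05, 0.162 with median scaling), a surface lectin of B cells, and none fell. In the early T and NK cell list, 1 of 8 with an annotated probe rose, beside Lck, a further member described above that rose on a probe named by the deposited table's own symbols. The 1 was Zap70, the second kinase of the T cell receptor, which was detected on all LMPP and no CMP arrays at a fold of at least 2.44 (adjusted p = 0.0268, 0.518 with slide as a block, 0.0526 without a detection filter, and up to 0.1296 with 1 array left out, lost for all but LMPP 4 and CMP 3). 

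Rag1, the recombinase of antigen receptor genes, read 5.18, 5.02, 5.10 and 5.53 in LMPP 1 to 4 and 4.85, 4.88, 4.598 and 4.64 in CMP 1 to 4 (difference 0.47, adjusted p = 0.311). Ikzf1, which encodes Ikaros, read 11.26, 11.40, 10.51 and 10.74 in LMPP 1 to 4 and 10.98, 10.93, 10.09 and 10.32 in CMP 1 to 4 (difference 0.40, adjusted p = 0.564, but 0.0332 with all its probes averaged). Rag1 was dim in both populations, and Ikzf1 was bright in both with groups that overlapped. The E protein Tcf4 rose by 0.76 on its brightest probe (adjusted p = 0.0444), but its other detected probe went the other way, and with the mean of its probes the adjusted p was 0.541. That call was also lost with median scaling (0.907), with the authors' values (0.0637) and without any 1 of the arrays except LMPP 3 (up to 0.154). It was the single called gene among 12 E proteins, Id factors and Ikaros family members, of which 3 rose once the replicate number was a block. Over all 11118 genes, 400 rose (3.60%), and 585 with that block.

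**Figure D2:**
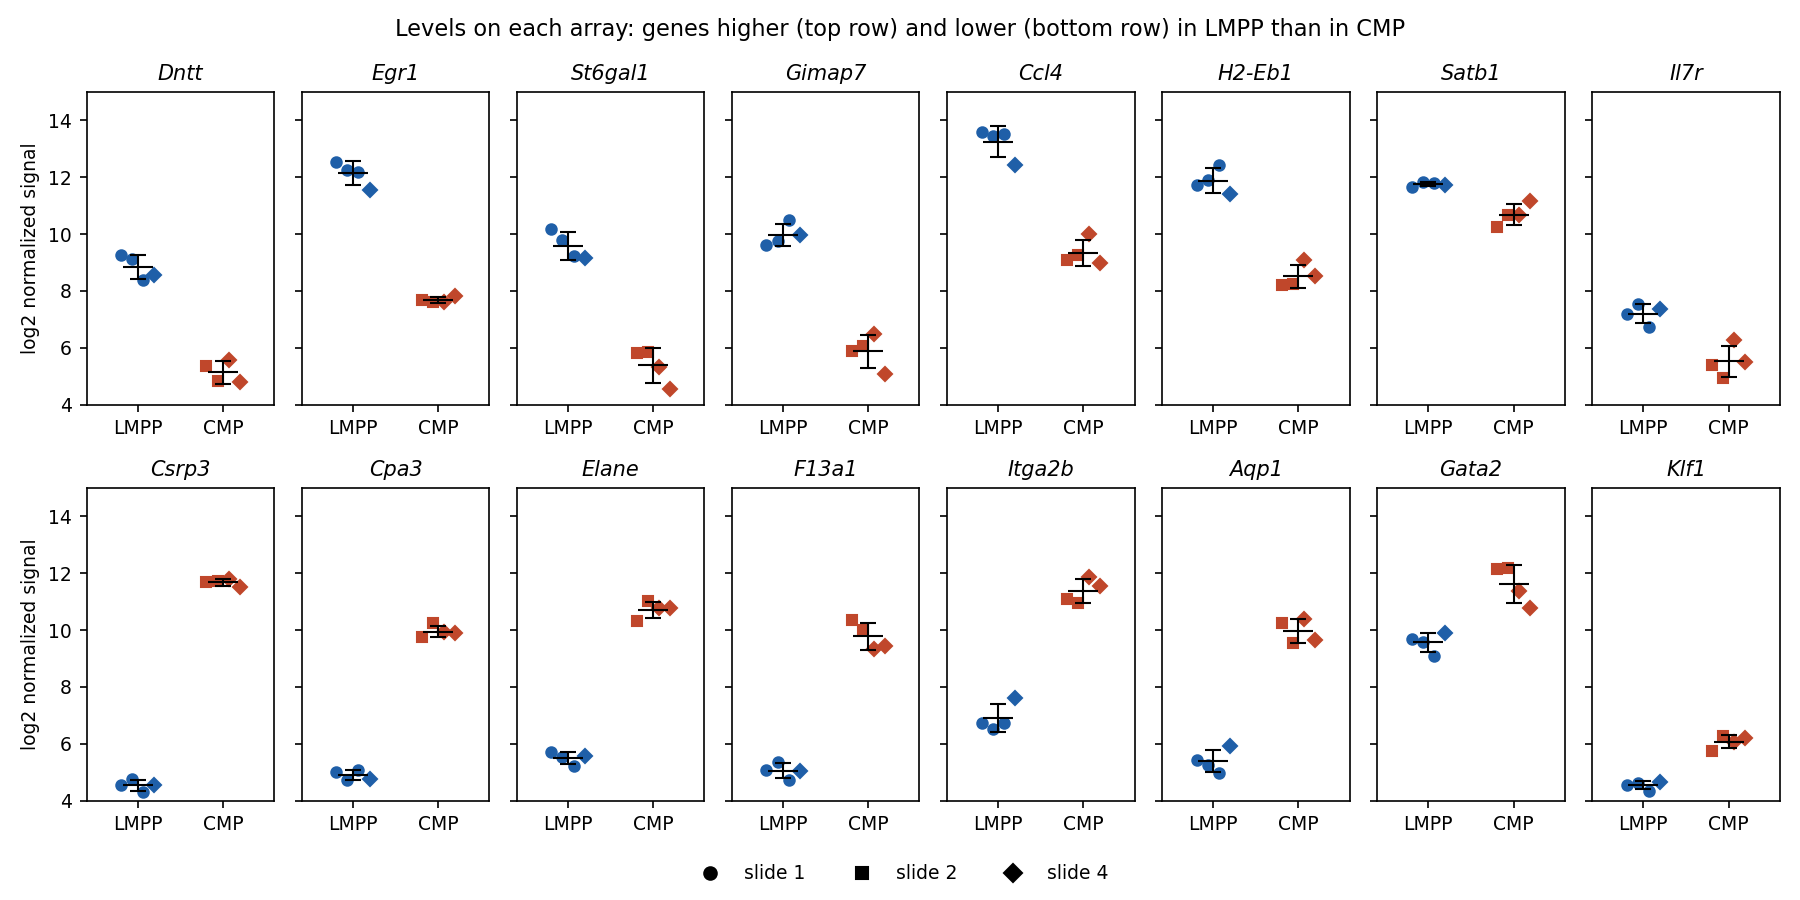
Each panel shows the log2 normalized signal of 1 gene on the 4 LMPP arrays (blue, left) and the 4 CMP arrays (red, right), with marker shapes for the slide, a black dash for the mean and error bars for the SD. The upper row holds genes that were higher in LMPP and the lower row genes that were lower, and in all 16 panels the 2 groups do not overlap.

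Genes of antigen presentation by MHC class II were also higher in LMPP. Of 11 measured, 4 rose (H2-Eb1, Cd74, H2-Ob and H2-Ab1), none fell, and all 11 differences were positive with a median of 1.19. With the replicate number as a block 8 were called, and with median scaling 2. H2-Eb1, a class II beta chain, read 11.74, 11.91, 12.45 and 11.40 in LMPP 1 to 4 and 8.21, 8.26, 9.09 and 8.54 in CMP 1 to 4, a difference of 3.35 ± 0.42 (SE, adjusted p = 1.15e-05). All 4 LMPP arrays lay above every CMP array.

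Cd74, the invariant chain that carries class II molecules through the cell, rose by 2.58 (adjusted p = 1.54e-04). H2-Ab1, another beta chain, rose by 1.38 (adjusted p = 0.00216, 0.401 with median scaling). H2-Ob, a chain of the class II modulator found in B cells, rose by 1.44 (adjusted p = 0.0225), a call lost with slide as a block (0.316), with median scaling (0.360) and without LMPP 2, LMPP 3, CMP 2 or CMP 3 (up to 0.0714). The dendritic cell list held 1 called gene in each direction of 12 measured, Tcf4 above and Irf8 below, and 2 above and 1 below with the replicate number as a block. Of all genes tested, 3.60% were called higher and 2.31% lower. Irf8, a factor of monocytes and dendritic cells, read 6.79, 6.496, 6.78 and 6.34 in LMPP 1 to 4 and 7.57, 7.55, 7.48 and 8.83 in CMP 1 to 4, with a difference of -1.26 (adjusted p = 0.00353).

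Genes of granulocyte and monocyte progenitors stood lower in LMPP. Of 24 measured, 11 fell and none rose, with a median difference of -1.06, or -1.05 with undetected genes at their bound. The 11 were Elane, Hp, F13a1, Ly6c1, Ms4a3, Cebpe, Ly86, Prtn3, Irf8, Fcgr3 and Ccl9. Elane, the neutrophil elastase, read 5.70, 5.53, 5.22 and 5.58 in LMPP 1 to 4, against 10.32, 11.01, 10.76 and 10.77 in CMP 1 to 4. F13a1, the monocyte and platelet subunit of clotting factor XIII, read 5.10, 5.36, 4.71 and 5.05 in LMPP 1 to 4, against 10.37, 9.99, 9.34 and 9.44 in CMP 1 to 4. Both were dim in LMPP and clearly present in CMP, with differences of -5.21 ± 1.01 (SE, adjusted p = 0.00193) for Elane and -4.73 ± 0.22 (SE, adjusted p = 7.97e-12) for F13a1.

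Hp, the haemoglobin scavenger haptoglobin of neutrophil granules, read 7.67, 7.03, 7.92 and 6.28 in LMPP 1 to 4, against 11.93, 12.18, 12.11 and 11.63 in CMP 1 to 4 (difference -4.74 ± 0.95, SE, adjusted p = 0.00270). Ly6c1, a surface marker of monocytes, read 5.47, 5.90, 5.14 and 4.91 in LMPP 1 to 4, against 11.09, 10.82, 10.15 and 8.04 in CMP 1 to 4 (difference -4.67 ± 0.49, SE, adjusted p = 9.41e-07). The LMPP arrays lay below every CMP array for both. Ms4a3, a gene of granulocyte-monocyte progenitors, was detected on no LMPP array and was at least 12.3-fold lower there (adjusted p = 0.00255). Trem3, a receptor of the myeloid TREM family, fell by 4.26 (adjusted p = 0.00588).

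Among the 13 genes of this list that were not called are Mpo and Csf1r, given above. The colony-stimulating factor receptor genes Csf2ra and Csf3r differed by 0.22 and 0.27 (adjusted p = 0.903 and 0.786). Prtn3, the third serine protease of the azurophil granule, fell by a smaller amount (-1.06, adjusted p = 0.00872) and stayed bright at 13.20 ± 0.17 in LMPP and 14.26 ± 0.19 in CMP (SD, n = 4 each). Among 16 genes of protein folding in the secretory pathway 2 fell, the chaperones Hsp90b1 (-1.46, adjusted p = 8.85e-04, 0.116 with median scaling) and Sdf2l1 (-1.68, adjusted p = 0.00513, 0.0832 with slide as a block and 0.103 with median scaling). Of all genes tested, 2.31% fell.

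Megakaryocyte and platelet genes had their lowest mean level in LMPP among the 5 populations. Of 16 measured, 10 fell and none rose, all 16 differences were negative and the median was -1.38, or -1.26 with undetected genes at their bound. The 10 were Treml1, Itga2b, Pf4, Gp5, Gp1bb, Vwf, Cd9, F2rl2, F2r and Gp9. The mean level of the list was 5.76, 5.87, 5.82 and 5.97 on LMPP 1 to 4, against 7.62, 7.41, 7.80 and 7.96 on CMP 1 to 4. The 18 arrays of the other 4 populations ranged from 7.41 (CMP 2) to 9.46 (GATA1+LSK 3), above every LMPP array. Of the 16 genes, 8 to 9 were detected on each LMPP array, against 12 to 14 on each CMP array. Genes not detected in LMPP passed the filter through other populations and enter the LMPP mean near background. Part of the gap between these means was therefore set by the choice of genes.

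Itga2b, the alpha chain of the platelet fibrinogen receptor (CD41), read 6.74, 6.51, 6.72 and 7.62 in LMPP 1 to 4, against 11.11, 10.94, 11.88 and 11.56 in CMP 1 to 4. The difference was -4.47 ± 0.36 (SE, adjusted p = 2.14e-08). LMPP 4, on slide 4, was the highest LMPP array and still far below every CMP array. Treml1, a receptor of platelet granules, was detected on no LMPP array and on all 4 CMP arrays, and was at least 17.4-fold lower in LMPP (adjusted p = 2.82e-10). Pf4, platelet factor 4, fell by 3.39 (adjusted p = 0.00299), and Gp5, a subunit of the von Willebrand factor receptor, fell by 3.34 (adjusted p = 7.17e-08).

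Genes of mast cells and basophils were among those that fell. The largest single difference was that of Csrp3, a muscle LIM-domain protein counted with them only because earlier results of these data grouped it there. It read 4.55, 4.76, 4.30 and 4.55 in LMPP 1 to 4, against 11.71, 11.73, 11.80 and 11.50 in CMP 1 to 4. It was detected on no LMPP array and was at least 110.4-fold lower in LMPP (adjusted p = 1.55e-09). Hdc, the enzyme that makes histamine, read 7.03, 7.23, 6.60 and 7.31 in LMPP 1 to 4, against 12.25, 12.78, 12.86 and 12.58 in CMP 1 to 4 (difference -5.58 ± 1.17, SE, adjusted p = 0.00387). Cpa3, the mast cell carboxypeptidase, read 5.0003, 4.73, 5.08 and 4.75 in LMPP 1 to 4, against 9.76, 10.24, 9.93 and 9.88 in CMP 1 to 4 (difference -5.06 ± 0.40, SE, adjusted p = 2.08e-08). Cpa3 was dim in LMPP, whereas Hdc was measurable there and still far below CMP.

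Of 11 measured genes in the list, 7 fell (Csrp3, Hdc, Cpa3, Fcer1a, Gata2, Mcpt8 and Prss34), none rose, and the median was -1.81. Without Csrp3, 6 of 10 fell and the median was -1.45, or -1.25 with undetected genes at their bound. Fcer1a, the chain of the IgE receptor that binds the antibody, was at least 5.74-fold lower in LMPP (adjusted p = 2.35e-05). Il1rl1, the interleukin-33 receptor of mast cells, is a further member, named by the deposited table's own symbols. It was detected on no LMPP array and all 4 CMP arrays and was at least 2.73-fold lower in LMPP (adjusted p = 0.0199 over all detected probes), but was not called with slide as a block (0.332) nor without LMPP 2, LMPP 3, CMP 1 or CMP 2 (up to 0.0853). The 4 genes of the list that did not pass were the eosinophil granule genes Prg2, Prg3, Epx and Ear6.

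Erythroid genes showed a smaller and less even difference. Of 12 measured, 5 fell (Aqp1, Car1, Icam4, Klf1 and Epor), none rose, and the median was -0.61, or -0.44 with undetected genes at their bound. Aqp1, the water channel of red cells and endothelium, read 5.43, 5.26, 4.97 and 5.92 in LMPP 1 to 4, against 10.24, 9.56, 10.39 and 9.65 in CMP 1 to 4 (difference -4.56 ± 0.28, SE, adjusted p = 6.34e-10). Klf1, the erythroid Krüppel-like factor, read 4.54, 4.64, 4.35 and 4.64 in LMPP 1 to 4, against 5.76, 6.26, 6.08 and 6.22 in CMP 1 to 4, and was at least 2.27-fold lower in LMPP (adjusted p = 7.62e-05). The groups did not overlap for either gene, and Klf1 was on no LMPP array above background. Car1, a carbonic anhydrase of early erythroid cells, was at least 12.5-fold lower (adjusted p = 2.62e-07), and Icam4, a blood group adhesion protein, fell by 2.35 (adjusted p = 5.85e-04).

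Heme synthesis and later red cell genes gave these calls, where 5.91% of all genes tested were called in either direction. Alas1, the housekeeping enzyme that starts heme synthesis, fell by 1.53 (adjusted p = 0.00420) and was the only called gene of 12 in heme synthesis and iron handling, where 2 fell with the replicate number as a block. Alas2 and Slc4a1, the erythroid heme enzyme and the band 3 anion exchanger, were detected on no array of either population. Of 2 measured late erythroblast markers, Tspo2 fell by 1.86 (adjusted p = 0.0324), a call lost without a detection filter (0.0686) and without any 1 of the arrays except CMP 1 (up to 0.103).

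Among GATA factors and their partners, 6 of 17 measured fell and none rose. Gata2 read 9.68, 9.59, 9.09 and 9.91 in LMPP 1 to 4, against 12.14, 12.19, 11.39 and 10.77 in CMP 1 to 4, a difference of -2.05 ± 0.34 (SE, adjusted p = 3.73e-04). Gata1 read 4.66, 4.91, 4.51 and 4.94 in LMPP 1 to 4, against 6.34, 6.31, 6.70 and 6.58 in CMP 1 to 4, a difference of -1.73 ± 0.27 (SE, adjusted p = 1.92e-04). Gata2 was clearly present in both populations, whereas Gata1 was dim in LMPP, and neither gene's groups overlapped. The others that fell were Klf1, the repressor Gfi1b, Lmo4 and Myb. For Myb, a factor of progenitor growth, the difference of -1.79 (adjusted p = 0.0208) was not called with slide as a block (0.204), with median scaling (0.161), with the authors' values (0.0615), with its probes averaged (0.0566), with only these 8 arrays (0.0618) or without LMPP 3, CMP 1 or CMP 2 (up to 0.107).

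The promoters of called genes in these lists were searched for the GATA factor motif AGATAA on either strand, in windows from 250 bases before to 50 after the start of transcription (RefSeq, GRCm38.p6). The 150 bases before the start are shown for 5 genes that fell in LMPP and hold it, 1 or 2 from each list, 5′ to 3′ on the gene's strand, with the motif (AGATAA or its reverse complement) in capitals. Their positions are chr16:30310782-30310931 (minus strand) for Gp5, chr9:21029282-21029431 (plus) for Icam4, chr9:21963577-21963726 (minus) for Epor, chr3:20242182-20242331 (minus) for Cpa3 and chr1:173227230-173227379 (minus) for Fcer1a.
Gp5: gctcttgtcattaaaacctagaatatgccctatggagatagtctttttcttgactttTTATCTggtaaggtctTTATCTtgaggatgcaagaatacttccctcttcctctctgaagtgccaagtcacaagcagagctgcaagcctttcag
Icam4: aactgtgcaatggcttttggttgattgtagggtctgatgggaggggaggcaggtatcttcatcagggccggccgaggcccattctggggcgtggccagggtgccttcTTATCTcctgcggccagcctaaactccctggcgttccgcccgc
Epor: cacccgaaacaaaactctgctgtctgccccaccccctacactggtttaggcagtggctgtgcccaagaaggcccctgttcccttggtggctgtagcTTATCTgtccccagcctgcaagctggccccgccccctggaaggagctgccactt
Cpa3: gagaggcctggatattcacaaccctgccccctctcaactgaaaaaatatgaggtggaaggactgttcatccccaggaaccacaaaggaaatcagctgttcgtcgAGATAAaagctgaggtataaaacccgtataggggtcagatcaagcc
Fcer1a: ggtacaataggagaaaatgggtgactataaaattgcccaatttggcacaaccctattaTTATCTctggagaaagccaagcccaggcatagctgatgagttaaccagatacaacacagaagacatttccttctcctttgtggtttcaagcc
The motif starts at -93 and -77 from the start site in Gp5, at -43 in Icam4, at -54 in Epor, at -46 in Cpa3 and at -92 in Fcer1a. It was in 3 of 9 windows of called megakaryocyte genes (Gp5, Pf4 and F2rl2), in 2 of 4 of called erythroid genes (Epor and Icam4) and in 3 of 7 of called mast cell genes (Cpa3, Fcer1a and Prss34). Over all 257 genes called lower in LMPP it was in 23 of 214 with a window (10.7%), and over the 400 called higher in 31 of 311 (9.97%). It was in 8.37% of the 9020 tested genes with a window and in 12.7% of all 27025 genes of the table, counting a gene once if any of its windows held it. A match is a description of these letters and not a site of binding.

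Immediate-early genes, which cells transcribe within minutes of a stimulus, had the largest median among the 36 lists over all arrays. Of 20 measured, 13 rose and none fell, and the median difference was 2.02. The 13 were Egr1, Klf2, Zfp36, Fos, Fosb, Junb, Dusp2, Jun, Dusp1, Ier3, Klf6, Ier2 and Jund. Egr1, a zinc finger factor, read 12.55, 12.27, 12.18 and 11.56 in LMPP 1 to 4, against 7.68, 7.61, 7.59 and 7.84 in CMP 1 to 4, a difference of 4.46 ± 0.30 (SE, adjusted p = 1.55e-09). Every LMPP array stood far above every CMP array, and LMPP 4 was the lowest of the LMPP.

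The rise was smaller on slide 4. On the slide that held both populations, the median of the list was 0.88, against 2.02 over all arrays. It was not the largest there, where lymphoid priming had a median of 0.90 and MHC class II of 0.94. Klf2, a factor of lymphocyte quiescence, read 9.30, 9.01, 9.48 and 6.20 in LMPP 1 to 4 and 4.86, 5.31, 4.38 and 5.17 in CMP 1 to 4 (difference 3.57, adjusted p = 0.00281, 0.0780 with median scaling). On slide 4 its difference was 1.43, and that of Zfp36, an mRNA decay protein, was 1.30 there against 3.29 overall (adjusted p = 2.60e-05). Fos, a subunit of AP-1, differed by 1.62 on slide 4 and 3.21 overall (adjusted p = 2.35e-04).

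The mean level of the immediate-early list was 9.54, 9.46, 9.21 and 7.90 on LMPP 1 to 4 and 6.97, 7.11, 6.97 and 6.87 on CMP 1 to 4. The 14 arrays of the other populations lay between 8.19 and 9.88. The 4 CMP arrays, from slides 2 and 4, were the lowest of all 22, and on slide 2 the GATA1+LSK and LT-HSC arrays read 9.38 to 9.88. With slide as a block 10 of the 20 were called. The 13 calls became 5 with median scaling, and 8 without LMPP 1, without LMPP 2 or without CMP 4. Without slide 1, which holds LMPP 1 to 3 and 3 GATA1-LSK arrays and leaves 1 LMPP array, 1 of the 20 was called.

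**Figure D3:**
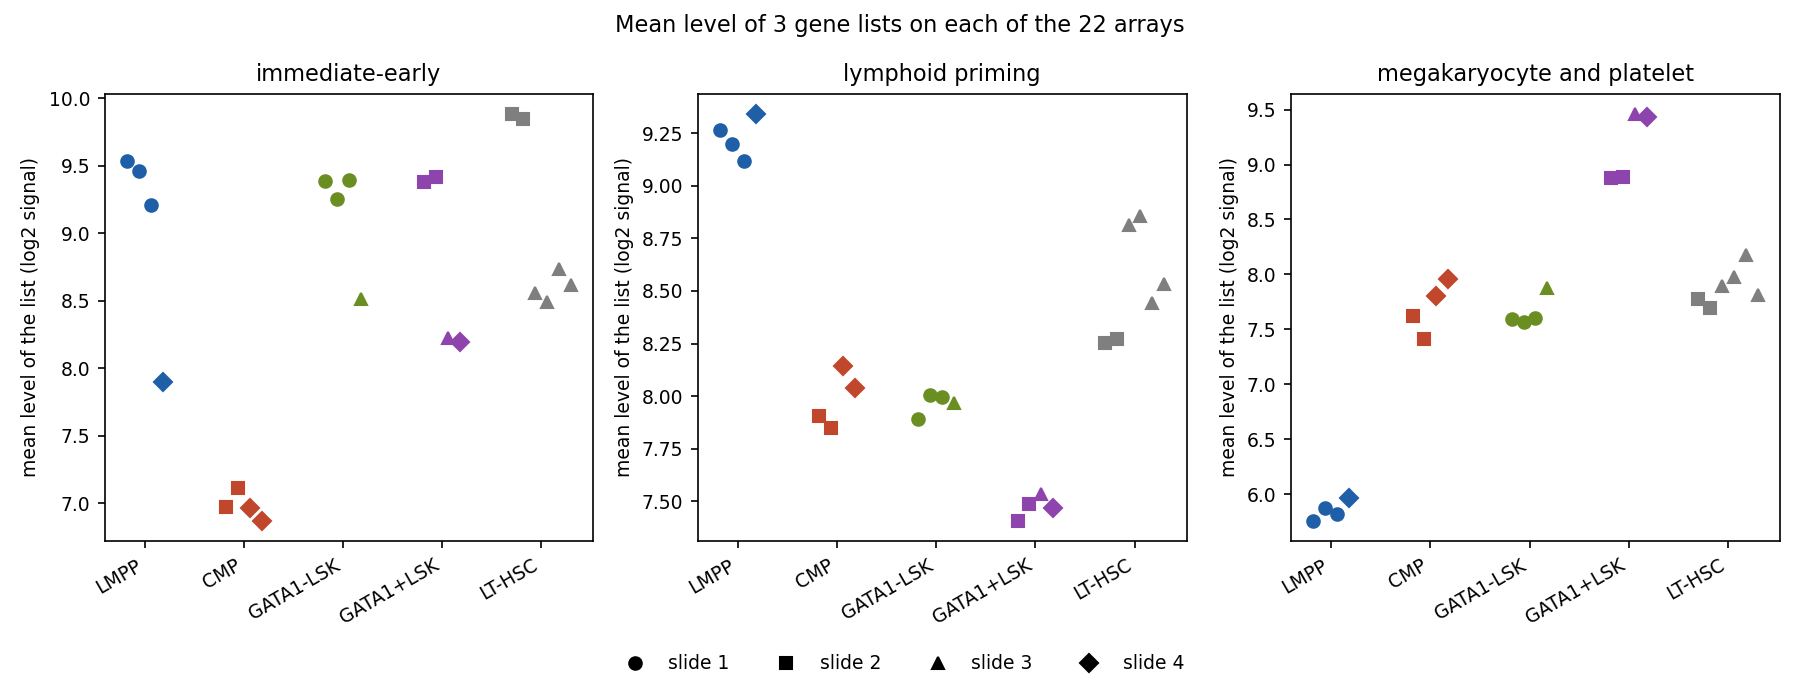
Each point is 1 of the 22 arrays, placed by population (LMPP and CMP first) with a marker shape for its slide, and its height is the mean log2 signal of the measured genes of the list named above each panel. For the immediate-early list the CMP arrays are the lowest of all. The LMPP arrays are the highest for lymphoid priming, at 9.12 to 9.34, and the lowest for megakaryocyte and platelet genes, at 5.76 to 5.97. Of the 16 megakaryocyte and platelet genes, 8 to 9 were detected on each LMPP array, and the rest enter its mean near background.

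Chemokines and other surface genes went both ways. Ccl4, a chemokine that attracts monocytes and lymphocytes, read 13.58, 13.45, 13.53 and 12.43 in LMPP 1 to 4, against 9.07, 9.27, 10.02 and 8.99 in CMP 1 to 4, a difference of 3.91 ± 0.32 (SE, adjusted p = 2.39e-08). Its relative Ccl3 rose by 3.04 (adjusted p = 1.81e-05). In the list of adhesion, homing and chemokine genes 3 of 17 rose (Ccl4, Ccl3 and Emp1) and 4 fell (Itga2b, Cx3cr1, Ccl9 and Ccr2), of which 2 fell with the authors' values. Emp1, an epithelial membrane protein, read 10.82, 11.06, 10.04 and 10.36 in LMPP 1 to 4, against 7.55, 6.70, 5.75 and 5.85 in CMP 1 to 4 (difference 4.11 ± 0.49, SE, adjusted p = 6.28e-06). All 4 LMPP arrays lay above every CMP array for Ccl4, Ccl3 and Emp1.

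The remaining genes with the largest rises had varied roles. Spint1, an inhibitor of serine proteases at the cell surface, read 9.54, 8.89, 9.43 and 8.93 in LMPP 1 to 4, against 4.91, 5.47, 5.53 and 4.37 in CMP 1 to 4 (difference 4.12 ± 0.53, SE, adjusted p = 1.76e-05). Tmem121, a membrane protein, read 9.98, 9.16, 9.64 and 7.84 in LMPP 1 to 4, against 5.05, 5.49, 4.90 and 5.08 in CMP 1 to 4 (difference 4.02 ± 0.62, SE, adjusted p = 1.79e-04). Cass4, a scaffold of focal adhesions, read 10.33, 10.24, 10.28 and 9.74 in LMPP 1 to 4, against 6.17, 7.03, 6.01 and 5.53 in CMP 1 to 4 (difference 3.97 ± 0.68, SE, adjusted p = 5.53e-04, 0.050007 with slide as a block, just past the threshold). The groups lay apart in all 3 genes. Zcchc18, a zinc knuckle protein, read 9.85, 9.94, 9.64 and 9.85 in LMPP 1 to 4, against 5.92, 5.22, 5.87 and 5.61 in CMP 1 to 4 (difference 4.17 ± 0.26, SE, adjusted p = 6.18e-10), while its other detected probe went the other way.

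Among the rest, Igf2r, the receptor that sorts mannose 6-phosphate tagged enzymes to lysosomes, rose by 3.77 (adjusted p = 6.88e-10). Nkx2-3, a homeobox factor needed for gut and spleen vessels, rose by 3.89 (adjusted p = 2.32e-08), Dusp5, a phosphatase of nuclear ERK, by 3.66 (adjusted p = 5.63e-04, 0.0522 with median scaling) and the somatostatin receptor Sstr2 by 3.61 (adjusted p = 9.98e-08). Mb21d2 rose by 3.72 (adjusted p = 7.17e-08). Among the falls not yet named, Emilin2, an extracellular glycoprotein, fell by 3.71 (adjusted p = 7.14e-08), and Zg16, a lectin of secretory granules, was at least 8.16-fold lower in LMPP (adjusted p = 4.89e-08).

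Cytokine receptors and their signalling genes went both ways. Of 22 measured, 5 rose (Il7r, Cish, Socs2, Il18r1 and Il10ra) and 2 fell (Stat5a and Epor). Cish and Socs2, inhibitors that STAT5 switches on, rose by 1.68 (adjusted p = 0.0252) and 1.41 (adjusted p = 0.0329), and Stat5a itself fell by 1.21 (adjusted p = 0.0173). With median scaling these were not called (0.488, 0.580 and 0.466). Leaving out 1 array ended the call of Cish for LMPP 1, LMPP 2, LMPP 3, CMP 1 and CMP 4, of Socs2 for all but LMPP 3 and CMP 4, and of Stat5a for LMPP 4 and CMP 1 (up to 0.0940, 0.104 and 0.0749). The 5 rises numbered 1 to 3 when any 1 array other than CMP 3 was left out. Without a detection filter Cish and Socs2 were not called (0.0516 and 0.0632).

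Stem cell genes were divided, and of all genes tested 5.91% were called in either direction. Of 17 measured, 3 rose (Egr1, Cdkn1c and Txnip) and 2 fell (Gata2 and Tek). Ly6a, a further member measured on a probe named by the deposited table's own symbols, also rose, as given above. Cdkn1c, the p57 inhibitor of cyclin-dependent kinases, read 8.93, 8.77, 8.52 and 9.38 in LMPP 1 to 4, against 6.57, 6.41, 7.38 and 6.56 in CMP 1 to 4 (difference 2.17 ± 0.24, SE, adjusted p = 1.82e-06). Its LMPP arrays lay above all CMP arrays, of which CMP 3 was the highest. It was the 1 called gene of 16 G1 cyclins and cyclin-dependent kinase inhibitors, where 2 rose with the replicate number as a block. Tek, the angiopoietin receptor, fell by 1.21 (adjusted p = 0.0103, 0.340 with slide as a block, 0.321 with median scaling and 0.0530 without CMP 1). Of 13 Hox genes and cofactors, Hoxa5 alone was called, at 1.90 (adjusted p = 0.00193, 0.226 with median scaling). Cd244a, a receptor used to divide multipotent progenitors, rose by 1.19 (adjusted p = 0.00483, 0.0591 with slide as a block, 0.0755 with median scaling and 0.0674 with cyclic loess).

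Lists of growth and metabolism gave these calls, where 5.91% of all genes tested were called in either direction. At that share, lists this short would hold few calls. None of 11 genes of mitosis, 20 of oxidative phosphorylation, 9 heat shock chaperones or 11 of the BCL2 family was called in limma. At an unadjusted p under 0.05 these lists held 0, 4 (1 higher and 3 lower), 4 (3 higher and 1 lower) and 1 higher gene. Differences were below 0 for 18 of 20 oxidative phosphorylation genes (median -0.26) and 7 of 11 mitosis genes (-0.059). The same held for 19 of 23 of DNA replication (-0.22) and 15 of 17 of ribosome biogenesis (-0.29). They were above 0 for 7 of 9 heat shock chaperones (0.50) and 6 of 11 BCL2 family genes (0.047). Over all 11118 genes, 5371 were below 0 (median 0.013). With the replicate number as a block, 1 heat shock chaperone and 1 BCL2 family gene were called higher, 2 genes of DNA replication lower, 1 of cholesterol synthesis lower and 4 of the interferon list higher. In DNA replication 1 of 23 fell, the ligase Lig1 (-1.14, adjusted p = 0.00255, 0.0711 with slide as a block, 0.190 with median scaling and 0.105 with its probes averaged). In ribosome biogenesis 1 of 17 fell, Utp4 (-0.59, adjusted p = 0.0366). That call was lost with the replicate number as a block (0.0513), with slide as a block (0.401), with median scaling (0.500), with the authors' values (0.0646), with only these 8 arrays (0.112) and without LMPP 1, LMPP 3, LMPP 4, CMP 2 or CMP 3 (up to 0.141). In glycolysis 1 of 15 rose and 1 fell. Hk3, the hexokinase of myeloid cells, read 10.31 ± 0.38 in LMPP and 12.04 ± 0.037 in CMP (SD, n = 4 each), with a difference of -1.73 (adjusted p = 4.58e-04), and Aldoc, an aldolase, differed by 1.56 (adjusted p = 0.00531, 0.477 with median scaling). In cholesterol synthesis 1 of 13 was called, the regulator Srebf2 (0.99, adjusted p = 0.0440), and that call was lost with slide as a block (0.725), with median scaling (0.494), with the authors' values (0.0542), without a detection filter (0.0677), with its probes averaged (0.0550) and without any 1 of the arrays except LMPP 4 and CMP 3 (up to 0.176). In the interferon list 2 of 19 rose, Ifit3 (2.07, adjusted p = 0.00462) and Irf7 (1.30, adjusted p = 0.00808, 0.0506 with slide as a block).

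**Figure D4:**
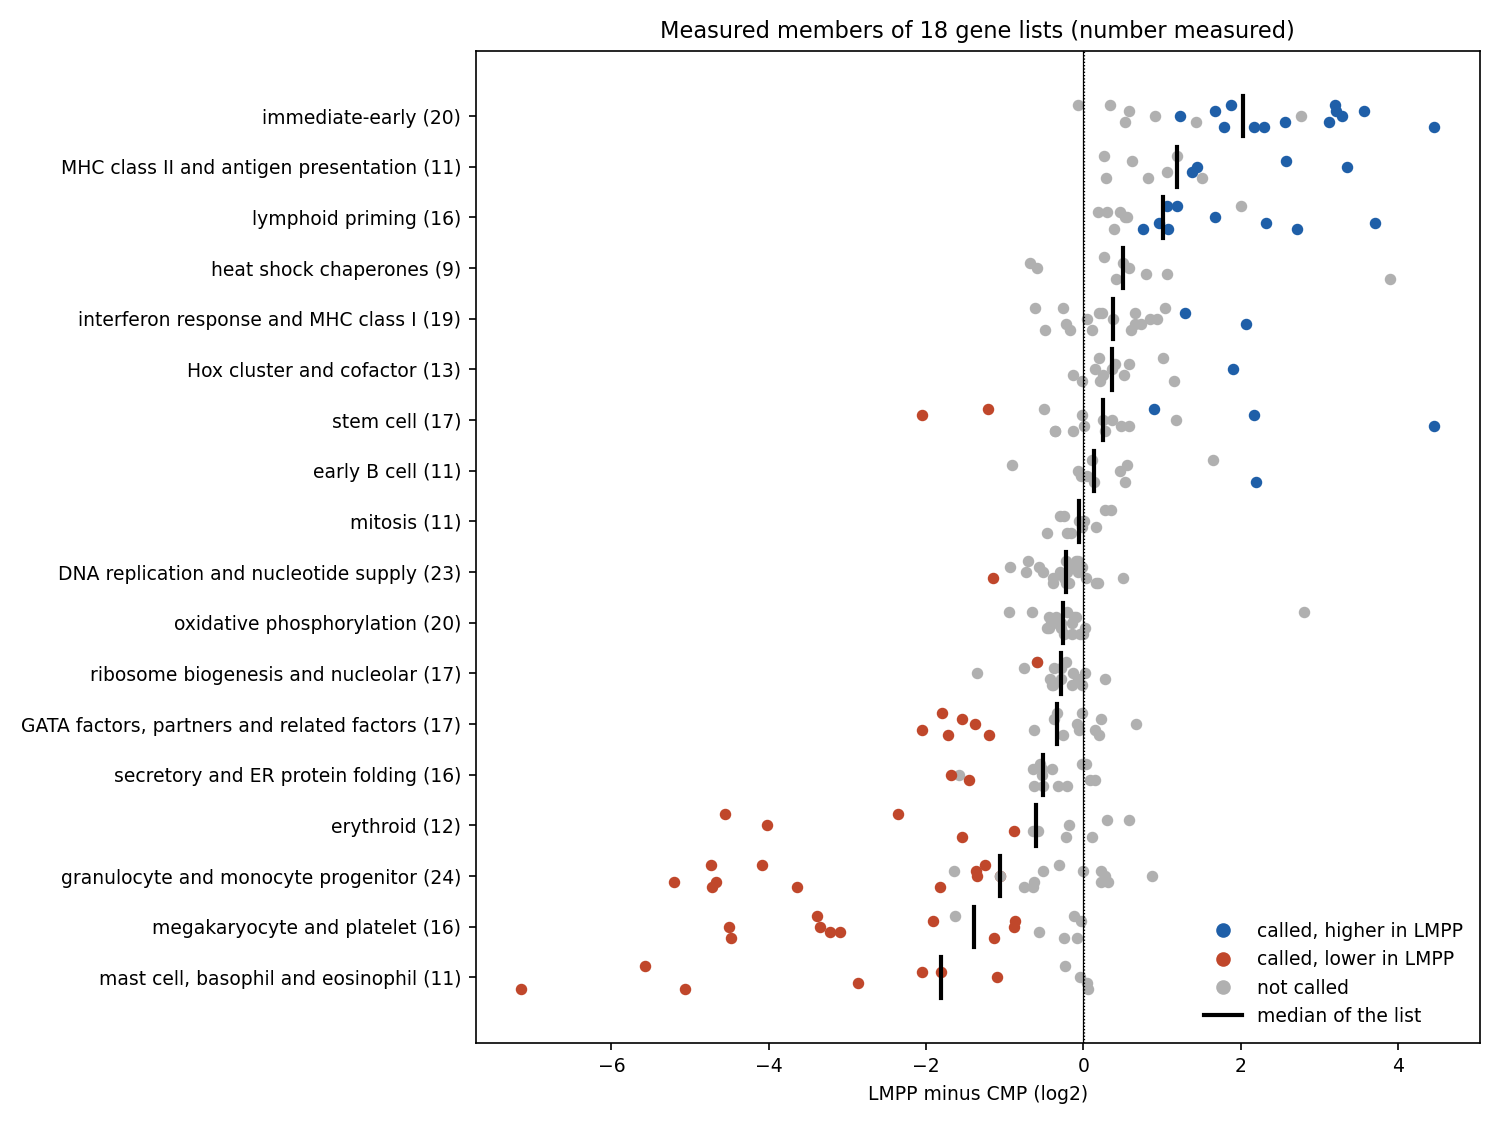
Each point is a measured gene of 1 of 18 lists, placed by LMPP minus CMP (log2), with called genes in blue (higher in LMPP) or red (lower) and the rest in grey. Black bars are list medians, and the dotted line is the median of all genes. The medians run from 2.02 for the immediate-early list at the top to -1.81 for the mast cell, basophil and eosinophil list at the bottom.

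Markers of other cell types gave these calls, where 5.91% of all genes tested were called in either direction. None of 6 mature neutrophil genes was called in limma (1 lower at an unadjusted p under 0.05, and 1 lower called with slide as a block), and their summed signal was 178 to 294 on LMPP arrays and 175 to 214 on CMP arrays. None of 7 stroma and endothelium genes and neither of 2 T and NK cell genes was called, nor did any of them have an unadjusted p under 0.05. Cd3e, Cd3d, Cd3g, Pax5, Ms4a1, Cd22, Cdh5 and Col1a1, which define T cells, B cells, endothelium and stroma, were detected on no LMPP or CMP array. Other members of these marker lists did give signal. The 2 measured T and NK cell genes averaged 12.27 to 12.72 (log2) on LMPP arrays and 12.74 to 13.01 on CMP arrays. The 4 measured B and plasma cell genes averaged 8.27 to 8.43 and 7.71 to 7.84. Of the 7 stroma and endothelium genes, 5 to 7 were detected on each of these arrays. Col3a1 and Sparc were each detected on 1 CMP array. Of 6 macrophage and monocyte genes, C1qb (1.73, adjusted p = 0.0119) and C1qc (1.18, adjusted p = 0.0343) rose, and Ccr2, the receptor that brings monocytes out of the marrow, was at least 1.77-fold lower in LMPP (adjusted p = 8.88e-05). The summed signal of these 6 genes was 281 to 423 on LMPP arrays and 179 to 298 on CMP arrays, and the part of such cells in the MHC class II values was not tested. C1qb was not called with slide as a block (0.0852) or without LMPP 3 (0.0502). C1qc was not called with slide as a block (0.318), with 4 other settings (0.0959, 0.0804, 0.0876 and 0.0589 with median scaling, the authors' values, cyclic loess and no detection filter) or without any 1 of the arrays except LMPP 4 and CMP 2 (up to 0.110). Of 4 B and plasma cell genes, Sdc1, the syndecan of plasma cells, rose by 1.42 (adjusted p = 0.00150).

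Xist, the RNA that silences an X chromosome in female cells, was named after its values were seen. It read 6.67, 5.59, 5.13 and 8.01 in LMPP 1 to 4, against 10.04, 10.06, 8.40 and 8.42 in CMP 1 to 4 (difference -2.88, adjusted p = 0.0175). The LMPP and GATA1-LSK arrays on slide 1 lay between 5.07 and 6.69, and every other array was above them. On slide 4 the difference was -0.40, with slide as a block the adjusted p was 0.635, and the call was lost without LMPP 2, LMPP 3, CMP 1 or CMP 2 (up to 0.0843). The Y-linked Eif2s3y was detected on all LMPP and CMP arrays and differed by 0.19 (adjusted p = 0.899). The labels do not give the sex of the mice, and its part in other differences was not tested.

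The other populations took different places between LMPP and CMP. Among the 400 genes called higher in LMPP, the LT-HSC mean lay nearer to LMPP than to CMP in 70.5%, the GATA1-LSK mean in 70.2% and the GATA1+LSK mean in 43.2%, against 52.8%, 63.7% and 46.2% of all genes tested. Among the 257 called lower, these shares were 56.0%, 57.6% and 37.4%. Of genes named above, Dntt averaged 8.84 in LMPP and 5.14 in CMP, with 5.72 in LT-HSC, 4.78 in GATA1-LSK and 4.35 in GATA1+LSK. Emp1 and Cass4 were likewise highest in LMPP among the 5 population means. St6gal1, Ltb, Gimap6, Il7r and Cd74 were highest in LT-HSC, Cd74 by a small margin (8.90 against 8.86 in LMPP). F13a1, Hp, Elane and Hdc were highest in CMP, while Itga2b, Aqp1 and Treml1 were highest in GATA1+LSK. Egr1 was high in all but CMP, at 12.14 in LMPP and 7.68 in CMP, with 12.52 in LT-HSC, 12.51 in GATA1-LSK and 12.47 in GATA1+LSK. These shares are a description, since the 4 LMPP and 4 CMP arrays that chose the genes also set the distances.

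**Figure D5:**
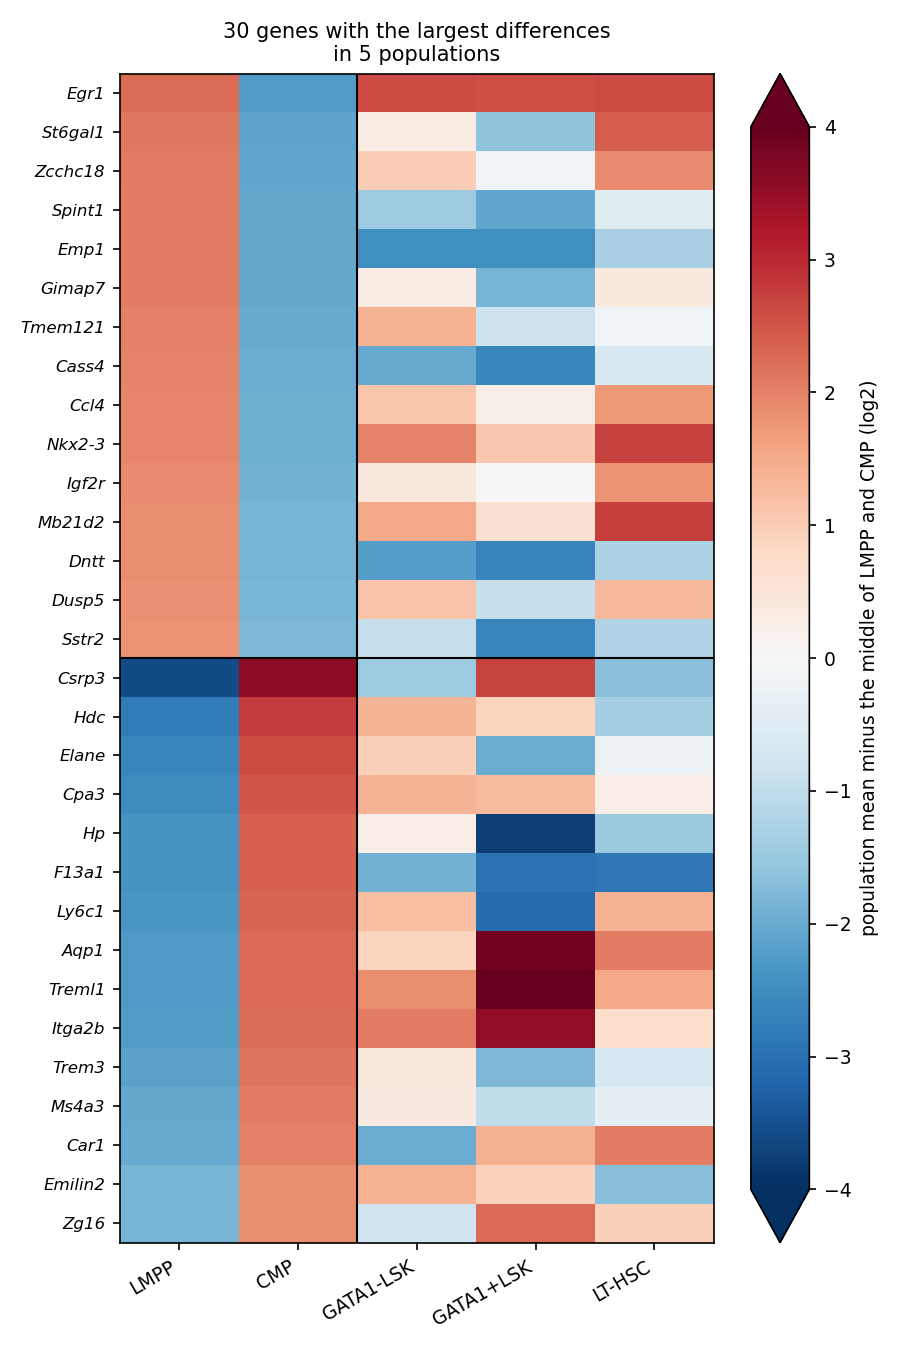
Rows are the 15 genes with the largest called rises (upper block) and the 15 with the largest called falls (lower block) in LMPP, and columns are the 5 populations, with LMPP and CMP on the left. Colour gives the population mean minus the middle of LMPP and CMP (log2), red above and blue below. Among the red cells outside the first 2 columns, those for Itga2b, Aqp1 and Treml1 in GATA1+LSK are the darkest, and F13a1 is blue in every population but CMP.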

How the data were processed

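RNA of 22 arrays was measured on an Illumina mouse bead array. The authors deposited a linear intensity and a detection p-value for each of 45281 probes, with a background already subtracted on each array, and a second table of intensity values in which every array has the same distribution. BeadStudio is named per the submitters' processing notes, and its version, background step and annotation are not given in the sources used here. The deposited p-value of a probe compares it with the negative control beads of its array.

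For this comparison, the first table was background-corrected by the normal-exponential method with the detection p-values, 16 was added, and values were log2-transformed and quantile-normalised (limma 3.58.1, R 4.3.3). Probes detected (p under 0.05) on at least 4 of the 22 arrays were kept (19764), and the brightest probe with 1 gene in the platform annotation was taken per gene. Of the 45281 probes, 34885 had 1 gene there, 18 several and 10378 none, and 34807 of the gene names matched the current symbols. Ly6a, Lck, Il1rl1 and Il2rg were named from the deposited table's own symbols and fitted over all detected probes. A model of 5 population means over all 22 arrays (17 residual degrees of freedom) gave LMPP minus CMP with limma's moderated test, two-sided, Benjamini-Hochberg adjusted over all genes. The fit was tested on simulated data. Precision is limited by 4 arrays a group. The number of detected probes was 15173 to 16705 on LMPP arrays and 14384 to 17839 on CMP arrays.

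A gene detected on no array of a population has only a bound there. "At least N-fold" sets the mean of the brighter population against the lowest detected signal of each dimmer array, or the gene's own signal where that was higher.

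Named genes are the landmarks measured (17 of 20), the 15 largest differences in each direction among called genes whose groups do not overlap (clone, predicted and Riken names left out), and up to 4 called members of each of 36 lists. Xist, Eif2s3y, Csf2ra, Csf3r, Prtn3, the eosinophil genes, the names of undetected markers and the families in the closing section were named after their values were seen. Members, lists and tests were chosen with earlier results of these data known. Promoters are RefSeq's (GRCm38.p6).

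Replicate numbers of the labels were checked for pairing. Deviations of same-numbered LMPP and CMP arrays from their means correlated, across genes, at 0.480, 0.402, 0.338 and 0.333, all over 0.1, so the numbers were taken to pair the arrays, although only pair 4 shares a slide. Different numbers also correlated, LMPP 2 with CMP 1 at 0.401, LMPP 1 with CMP 2 at 0.276, LMPP 4 with CMP 3 at 0.228 and LMPP 3 with CMP 4 at 0.126, while every pair across numbers 1 or 2 and 3 or 4 was below 0. A fit with the number as a block was an alternative, beside other background, scaling, filter, probe, slide, sample, variance, weight and threshold choices and leaving out each array. Leaving out slide 1 or slide 3, and the fits over all detected probes, were chosen after seeing the data.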

Additional observations from a re-analysis of the deposited data

Results flagged for a closer look

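Each value here is a log2 signal on 1 array whose distance from the nearest of the 3 other arrays of its population, as a share of the range, passed Dixon's 95% limit for 4 values. Of 172 groups of 4 arrays examined, 10 passed (5.81%), and chance alone gives about 1 in 20.

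LMPP 4, the LMPP array on slide 4, was the low one in 6 of the 10. It read 6.20 for Klf2, against 9.01 to 9.48 on the other LMPP arrays, and 11.06 for Zfp36, against 13.10 to 13.33. Both are immediate-early genes, whose list was also lower on LMPP 4. It read 12.43 for the chemokine Ccl4, against 13.45 to 13.58, and 8.56 for Ccl3, against 9.36 to 9.48. For the scaffold Cass4 it read 9.74, against 10.24 to 10.33, and for the hexokinase Hk3 9.75, against 10.44 to 10.56. In none of these 6 genes did LMPP 4 reach the range of the CMP arrays.

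Among CMP arrays, CMP 4 read 8.83 for Irf8, against 7.48 to 7.57 on the other 3. CMP 3 read 7.38 for Cdkn1c, against 6.41 to 6.57, and 7.21 for Cd72, against 8.01 to 8.16. CMP 1 read 5.58 for Cd74, against 6.42 to 6.59. All 10 genes stayed called when any 1 LMPP or CMP array was left out, and no cause was tested.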

How the results depend on the processing

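The 657 calls (400 higher, 257 lower in LMPP) became 302 (142 and 160) with median scaling, 2327 (1261 and 1066) with array weights, 369 (239 and 130) at an adjusted p under 0.01, and 76 (48 and 28) without slide 1, which leaves 1 LMPP array, assumed to vary like the other groups. With 1 array left out the count was 447 to 692, of genes higher 276 to 399 and of genes lower 171 to 293, lowest without LMPP 3. Under the 13 other settings that refit all genes or raise the threshold to 2-fold it was 461 (slide as a fixed block) to 965 (replicate block). With the replicate number as a block, 585 were higher and 380 lower, 651 of the 657 among them. Among named genes the block ended the call of Utp4 and gained Csf1r and Il2rg, and it changed no other named call. Of the 657 genes, 656 or all kept their sign in every setting where all were tested. Of 78 named calls, median scaling ended 22, slide as a fixed block 15, leaving out 1 array 6 to 12, and leaving out slide 1 52, while the stricter detection limit, array weights and a variance trend ended 0. Without slide 1 the counts were 4 of 16 for lymphoid priming, 0 of 11 for MHC class II, 2 of 24 for granulocyte and monocyte, 4 of 16 for megakaryocyte, 3 of 11 for mast cell, 2 of 12 for erythroid and 0 of 17 for GATA factor genes. Within slide 4 there is no test. Genes near background, Flt3 among them, are limited by their signal. The causes of these changes were not tested.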

Other observations

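Several gene families, most of whose members are in no list, were looked at after their values were seen, so they are described with no test of the family. Of 17 measured genes of the NF-kB pathway, which relays signals from cytokine and pattern receptors, 10 were called higher in LMPP and none lower, with a median difference of 1.36 and 16 differences above 0. Nfkbiz, a nuclear inhibitor-like cofactor of NF-kB, read 10.38, 10.58, 9.26 and 7.81 in LMPP 1 to 4 and 7.12, 6.496, 5.43 and 5.91 in CMP 1 to 4 (difference 3.27, adjusted p = 0.00216). Traf1, an adaptor of tumour necrosis factor receptors, read 6.17, 6.75, 7.71 and 6.68 in LMPP 1 to 4 and 4.83, 4.68, 4.55 and 4.601 in CMP 1 to 4 (difference 2.16, adjusted p = 0.00226). Their groups did not overlap. Tnf, the cytokine itself, read 7.76, 7.64, 7.498 and 4.94 in LMPP 1 to 4 and 5.13, 5.19, 4.45 and 4.59 in CMP 1 to 4 (difference 2.12, adjusted p = 0.00490), and on slide 4 the difference was 0.42. The feedback inhibitor Tnfaip3 rose by 1.16 over all arrays (adjusted p = 0.0198), against -0.33 on slide 4. With slide as a block 5 of the 10 calls were left, without Tnf, Tnfaip3, Nfkbid, Relb and Traf4 (adjusted p from 0.0615 for Tnf to 0.657 for Tnfaip3), and the median on slide 4 was 0.40.

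The Socs and Dusp families, looked at in the same way, had smaller medians. Of 5 Socs genes 2 rose (Socs2 and Socs3) with a median of 0.19, and of 19 Dusp genes 3 rose (Dusp1, Dusp2 and Dusp5) and 1 fell (Dusp3) with a median of 0.059. With the replicate number as a block 5 Dusp genes rose and 2 fell. Over all 11118 genes, 400 rose and 257 fell, and 585 and 380 with that block. Socs3, an inhibitor of cytokine signalling, read 10.65, 10.10, 10.21 and 7.93 in LMPP 1 to 4 and 6.58, 6.62, 7.02 and 7.12 in CMP 1 to 4 (difference 2.89, adjusted p = 0.00292), with LMPP 4 the lowest of the LMPP.

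Of 12 genes that endothelium shares with blood progenitors, 6 rose and 1, Tek, fell, with a median of 0.78. Robo4, a guidance receptor, read 10.55, 10.60, 10.41 and 10.04 in LMPP 1 to 4 and 6.96, 7.37, 7.75 and 7.16 in CMP 1 to 4 (difference 3.09, adjusted p = 4.83e-07). Egfl7, a secreted protein of vessels and stem cells, differed by 1.57 (adjusted p = 0.00128), Emcn, a sialomucin, by 1.51 (adjusted p = 0.00115) and the collagen gene Col4a1 by 2.21 (adjusted p = 2.24e-05). All 4 LMPP arrays lay above every CMP array for these 4 genes, also on slide 4. Of 7 Gimap genes 4 rose, among them Gimap1, which read 12.11, 11.79, 11.34 and 11.58 in LMPP 1 to 4 and 10.82, 10.47, 10.18 and 10.52 in CMP 1 to 4 (difference 1.20, adjusted p = 0.00310).

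Of 3189 detected probes with no gene in the annotation, 110 were called (68 higher and 42 lower in LMPP) in the fit over all detected probes. That fit called 885 of all 19764 detected probes (4.48%). Of the called genes, 237 had other detected probes, and for 201 of these all of them had the sign of the brightest.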
